A study of Sus scrofa with 33 samples.

Results

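The genes described here are the heat shock proteins and co-chaperones measured in pig right ventricle: 56 genes of the 6765 that the array annotation names by a single symbol. A gene was taken when its symbol began with HSP, DNAJA, DNAJB or DNAJC, or named a heat shock factor, a subunit of the chaperonin CCT (TCP1 included) or a BAG protein. HSPA6, HSPB8 and BAG3 were kept apart and appear only among the other genes of the pathway, and HSPG2, which is a matrix proteoglycan, was left out. Each gene is read from its brightest probe set, judged by the mean across the arrays. The members are 3 genes of the HSP90 family, 10 of the HSP70 and HSP110 family, both parts of the mitochondrial chaperonin, 6 small heat shock proteins, 22 J-domain proteins, 6 subunits of CCT, 3 BAG proteins, 2 heat shock factors and 2 binding partners, HSPBP1 and HSF2BP.

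Biopsies of the right ventricular free wall were taken 3 times from each of 11 pigs: before banding (baseline), once the pulmonary artery had been banded for 120 min, and a last time when another 60 min had passed. Banding narrows the pulmonary artery and raises the load on the right ventricle. The 6 pigs of the shunt arm received a modified Glenn shunt for the last 60 min, which leads blood from the superior vena cava straight into the lung circulation, past the right ventricle, and the 5 pigs of the control arm received none. Each biopsy gave 1 Affymetrix array, so that each arm has 1 array per pig and biopsy. The labels give no strain, age or weight. No pig went without banding. A change from baseline due to banding therefore cannot be told apart from one due to the time passed or the earlier biopsy.

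Heat shock proteins are molecular chaperones: they bind unfolded proteins, keep them from aggregating and help them fold. HSP70 proteins work in cycles of ATP hydrolysis, with J-domain proteins that bring the substrate and start hydrolysis, and with HSP110 and BAG proteins that release the nucleotide. HSP90 acts later on selected client proteins, HSP60 and CCT enclose the folding chain in a chamber, and small heat shock proteins hold it without ATP. In stressed cells, the heart muscle cell included, the transcription factor HSF1 switches on many of these genes within minutes, whereas others are made at all times.

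All values below are log2 levels of a probe set, normalised by the authors with RMA, or differences between such levels. Levels of different genes are not comparable on an array. The array medians lay between 6.10 and 6.17. The 9 measured markers of ventricular cardiomyocytes had log2 levels of at least 10.26 on every array, as the labelled tissue would have. The labels name no array sets. From the levels of spiked-in controls the pigs were divided into 3 array sets: the control pigs, shunt pigs 1 to 4, and shunt pigs 5 and 6. The spiked-in control BioB separated all 3, at log2 levels of 8.84 to 10.02, 8.01 to 8.54 and 5.82 to 6.15 in that order. Dap, another such control, had mean log2 levels of 7.59, 3.38 and 8.34 and set only shunt pigs 1 to 4 apart. Its range over the control pigs (6.64 to 8.95) enclosed that of shunt pigs 5 and 6 (8.08 to 8.60). No set held pigs of both arms, so array set and arm cannot be told apart, whereas a change within a pig compares arrays of the same set.

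At 120 min of banding the largest rises over baseline were those of 4 genes of the HSP70 and J-domain families. DNAJB1, the main J-domain partner of inducible HSP70, rose 3.46-fold, HSP70.2, which RefSeq lists under the synonyms HSPA1A and HSPA1B of the inducible HSP70 itself, rose 2.71-fold, and HSPH1, the HSP110 that recharges HSP70, rose 1.99-fold. HSPA13, an HSP70-like ATPase of the microsomes, rose 2.06-fold. The HSP90 genes and most of CCT were not called, and both parts of the mitochondrial chaperonin fell slightly. In all 24 of the 56 members (42.9%) passed an adjusted p of 0.05 in limma with Benjamini-Hochberg adjustment over all 23999 probe sets, against 33.9% of all genes. By direction, 17 members rose and 7 fell, whereas 13.1% of all genes rose and 20.8% fell. By size, 7 members rose at least 1.5-fold, as did 3.73% of all genes, and 3 rose at least 2-fold, as did 1.43%. The median change over the members was 0.03 log2 and that over all genes -0.02; 31 members had a change above 0 and 25 below.

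**Figure D1:**
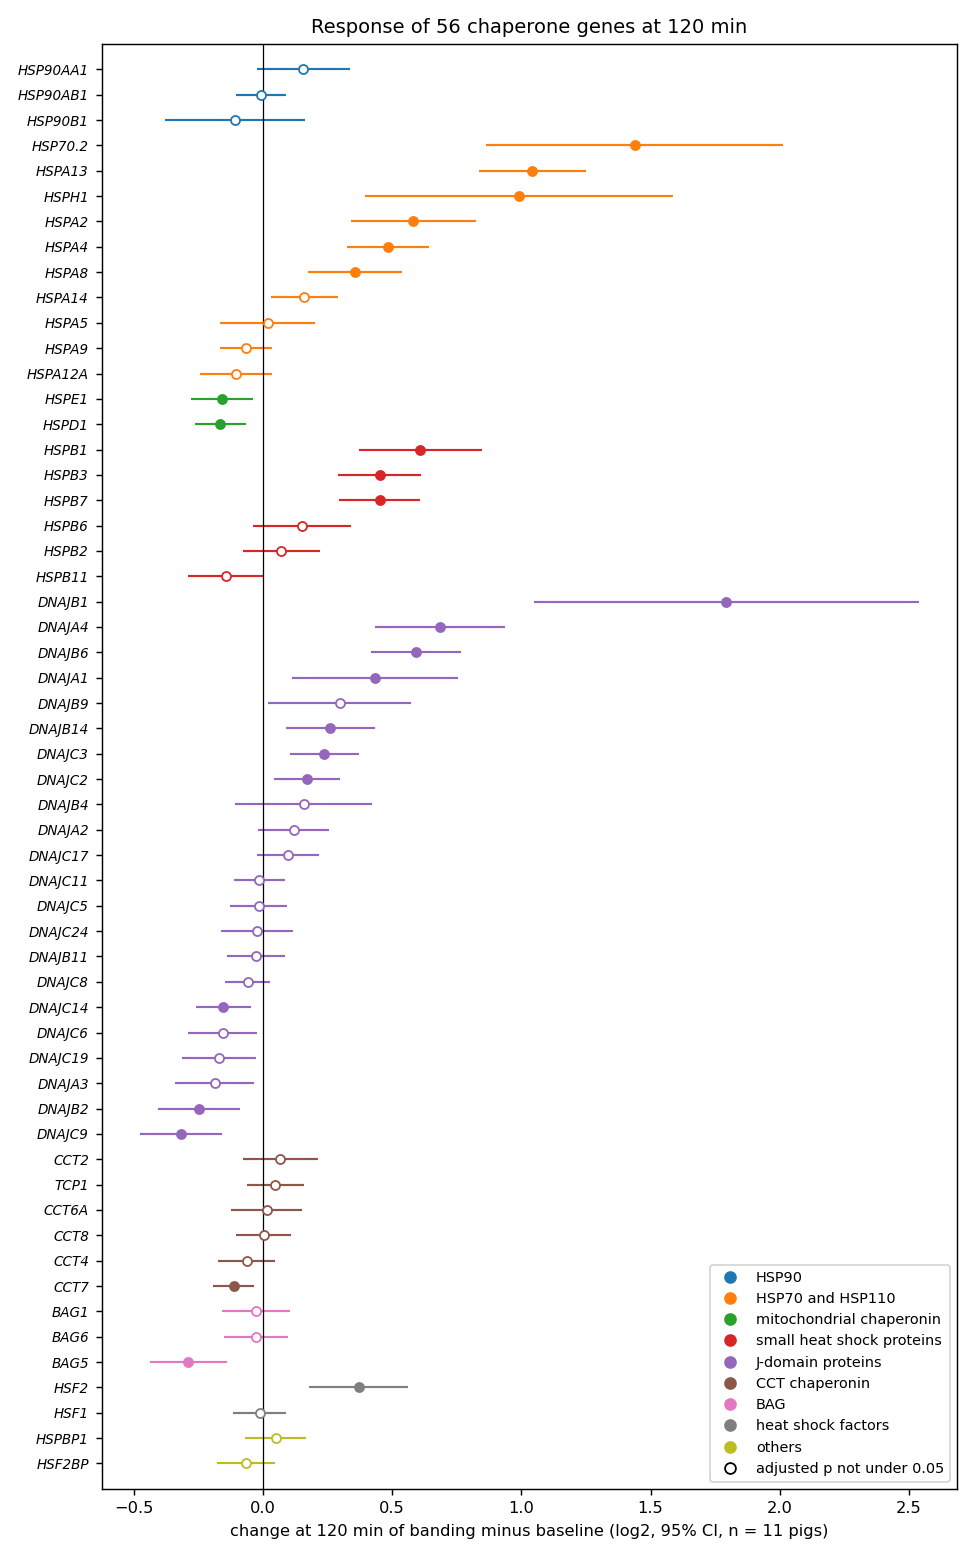
Change of each of the 56 members at 120 min of banding, as log2 level at 120 min minus log2 level at baseline, with 95% confidence intervals over 11 pigs. Colours give the family, and open circles are members that did not pass. DNAJB1, at 1.79, lies farthest to the right and DNAJC9, at -0.32, farthest to the left.

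Of the HSP70 and HSP110 family 6 of 10 rose (60%) and none fell, where 13.1% of all genes rose and 20.8% fell. HSP70.2 had log2 levels of 12.43, 13.34 and 13.93 in the shunt pigs at 120 min (lowest, median and highest of 6), against 10.39, 11.22 and 12.24 at baseline. In control pigs 1 to 5 its log2 levels were 12.17, 11.09, 10.70, 11.55 and 10.21 at 120 min, against 10.30, 10.52, 10.31, 9.997 and 10.17 at baseline. At 120 min every shunt pig lay above every shunt baseline, while control pig 5 barely moved, and at 120 min the shunt pigs did not overlap the control pigs. The change was 1.44 ± 0.28 log2 (SE, n = 11 pigs, adjusted p = 0.000333) and upward in 11 of 11 pigs. Both other probe sets of the gene rose too, by 1.85 and 1.90 log2.

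HSPH1 had log2 levels of 9.45, 10.47 and 11.40 in the shunt pigs at 120 min (lowest, median, highest), against 8.17, 9.07 and 9.97 at baseline. In the 5 control pigs the log2 levels were 9.41, 9.02, 8.26, 9.25 and 8.39 at 120 min, against 8.24, 8.41, 8.16, 7.83 and 8.07 at baseline. Shunt pigs 1 and 3 were the highest responders, with changes of 2.56 and 2.40 log2, and control pig 3 the lowest, with 0.10. The mean change was 0.99 ± 0.29 log2 (SE, adjusted p = 0.0114, 11 of 11 pigs).

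The change of HSPA13 lay between 0.51 log2 in control pig 3 and 1.57 log2 in shunt pig 1. Its log2 levels in the shunt pigs were 9.12, 9.42 and 9.66 at 120 min, against 7.83, 8.16 and 8.52 at baseline. In the control pigs they were 8.92, 8.91, 8.58, 8.57 and 8.53 at 120 min, against 7.40, 8.18, 8.07, 7.98 and 7.59 at baseline. In neither arm did the 2 biopsies overlap. Its change of 1.04 ± 0.10 log2 had the smallest adjusted p of the members (5.77e-08).

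HSPA2, an HSP70 best known from the testis, rose by 0.58 ± 0.12 log2 in 10 of 11 pigs. HSPA4, a further nucleotide exchange factor of the HSP110 group, rose by 0.48 ± 0.08 log2, and HSPA8, the constitutive HSC70, by 0.36 ± 0.09 log2, each in 11 of 11 pigs. The adjusted p-values were 0.000486, 3.61e-05 and 0.00317 in limma. HSPA14, an HSP70 of the ribosome, had a change of 0.16 ± 0.06 log2 and an adjusted p of 0.056. Nor did the rest of the family pass: HSPA5, the BiP of the endoplasmic reticulum, stood at 0.02 ± 0.09 log2 and HSPA9, the mitochondrial mortalin, at -0.06 ± 0.05 log2. HSPA12A, a distant relative, stood at -0.10 ± 0.07 log2.

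Of the 22 J-domain proteins 7 rose (31.8%) and 3 fell (13.6%), where 13.1% of all genes rose and 20.8% fell. DNAJB1 had log2 levels of 8.54, 9.95 and 10.86 in the shunt pigs at 120 min (lowest, median, highest), against 6.79, 7.27 and 8.11 at baseline. In control pigs 1 to 5 they were 9.14, 8.01, 7.95, 8.04 and 7.44 at 120 min, against 7.57, 7.06, 6.89, 6.63 and 6.91 at baseline. The 2 biopsies did not overlap in the shunt pigs, and in the control pigs they overlapped by the high baseline of pig 1 alone. The change was 1.79 ± 0.36 log2 (SE, adjusted p = 0.000501), upward in 11 of 11 pigs, with the largest single changes in shunt pigs 3 and 1 (3.85 and 3.84 log2) and the smallest in shunt pig 2 (0.43 log2).

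DNAJA4, a cytosolic partner of HSP70 found in heart and muscle, had log2 levels of 11.21, 11.74 and 12.28 in the shunt pigs at 120 min, against 10.59, 10.86 and 11.12 at baseline. In the control pigs they were 11.49, 11.32, 10.97, 11.28 and 11.13 at 120 min, against 10.58, 10.89, 10.48, 10.96 and 11.02 at baseline. The 2 biopsies did not overlap in the shunt pigs and did in the control pigs, and the change was 0.68 ± 0.12 log2 (adjusted p = 0.000136, 11 of 11 pigs). DNAJB6, which keeps proteins from aggregating and is mutated in a limb-girdle muscular dystrophy of humans, rose by 0.59 ± 0.08 log2 (adjusted p = 8.79e-06, 11 of 11 pigs). DNAJA1, a general partner of HSC70, rose by 0.43 ± 0.15 log2 in 9 of 11 pigs (adjusted p = 0.0376).

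Smaller rises were those of DNAJB14, a membrane protein of the endoplasmic reticulum (0.26 ± 0.08 log2), DNAJC3, the P58IPK of its lumen (0.24 ± 0.06 log2), and DNAJC2, which works on the ribosome with HSPA14 (0.17 ± 0.06 log2). DNAJC9, a co-chaperone of histones, fell by 0.32 ± 0.08 log2 and was lower in 9 of 11 pigs. DNAJB2, which couples HSP70 clients to ubiquitin, fell by 0.25 ± 0.08 log2. DNAJC14, a membrane protein of the endoplasmic reticulum, fell by 0.15 ± 0.05 log2, lower in 11 of 11 pigs. These 6 changes had adjusted p-values between 0.00271 and 0.0394.

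The other 12 J-domain genes did not pass. DNAJB9, the ERdj4 induced by the unfolded protein response, stood at 0.30 ± 0.13 log2 (adjusted p = 0.102), DNAJB4 at 0.16 ± 0.13, DNAJA2 at 0.12 ± 0.07 and DNAJC17 at 0.10 ± 0.06 log2. DNAJC11, DNAJC5, which is the cysteine string protein of secretory vesicles, DNAJC24, DNAJB11, which is a lumenal ERdj3, and DNAJC8 lay between -0.06 and -0.01 log2. DNAJC6, the clathrin-uncoating auxilin, stood at -0.16 ± 0.06 log2, and the mitochondrial DNAJC19 and DNAJA3 at -0.17 ± 0.07 and -0.19 ± 0.07 log2. Their adjusted p-values ran between 0.061 and 0.853. Without control pig 3, DNAJB9 and DNAJA2 passed (0.36 and 0.17 log2), and without control pig 4 DNAJA3 did (-0.25 log2).

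Of the small heat shock proteins 3 of 6 rose (50%) and none fell, where 13.1% of all genes rose and 20.8% fell. All 3 rose in 11 of 11 pigs. HSPB1, the HSP27 that binds actin as well as unfolded protein, had log2 levels of 11.78, 12.12 and 12.81 in the shunt pigs at 120 min, against 11.27, 11.41 and 12.01 at baseline. In the control pigs they were 11.80, 11.64, 11.65, 11.36 and 11.66 at 120 min, against 11.71, 10.88, 10.96, 10.71 and 11.52 at baseline. Control pigs 1 and 5 started high and rose least, and the 2 biopsies overlapped in both arms. The change was 0.61 ± 0.12 log2 (adjusted p = 0.000279).

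HSPB7, which is abundant in cardiac muscle, rose by 0.45 ± 0.08 log2 (adjusted p = 6.91e-05) and HSPB3, a muscle form, by 0.45 ± 0.08 log2 (adjusted p = 9.08e-05). HSPB6, the HSP20 of muscle, stood at 0.15 ± 0.09 log2, and HSPB2, which binds the myotonic dystrophy kinase, at 0.07 ± 0.07 log2. HSPB11, a part of the transport machinery of cilia, stood at -0.14 ± 0.07 log2. None of these last 3 passed, with adjusted p-values of at least 0.140.

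No HSP90 gene passed. HSP90AA1, the inducible cytosolic form, had a change of 0.16 ± 0.09 log2 (adjusted p = 0.19), and HSP90AB1, the constitutive one, -0.01 ± 0.05 log2 (adjusted p = 0.931). HSP90B1, the GRP94 of the endoplasmic reticulum, was lower in 10 of 11 pigs, by 0.12 to 0.46 log2, and higher by 1.40 log2 in shunt pig 4, whose baseline log2 level of 10.31 was the lowest of the 6 shunt pigs. Its mean change of -0.11 ± 0.13 log2 did not pass (adjusted p = 0.572), and without shunt pig 4 it was -0.26 ± 0.07 log2 and passed (adjusted p = 0.0126). The gene's second probe set also passed on all 11 pigs, at -0.25 ± 0.04 log2.

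HSPD1 and HSPE1, the HSP60 and HSP10 that form the chaperonin of the mitochondrial matrix, both fell by 0.16 log2, with SE of 0.05 and 0.06 and adjusted p-values of 0.0114 and 0.0418. HSPD1 had log2 levels of 11.44, 11.50 and 11.60 in the shunt pigs at 120 min, against 11.61, 11.65 and 11.75 at baseline, without overlap. In the control pigs its log2 levels were 11.46, 11.49, 11.28, 11.66 and 11.23 at 120 min, against 11.68, 11.56, 11.62, 11.52 and 11.61 at baseline, where pig 4 moved upward. Of the 6 CCT subunits, which fold actin and tubulin, CCT7 alone passed and fell by 0.11 ± 0.04 log2 (adjusted p = 0.0288). CCT2, TCP1, CCT6A, CCT8 and CCT4 stood between -0.06 and 0.07 log2.

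BAG5, a BAG protein that binds HSP70, fell by 0.29 ± 0.07 log2 (adjusted p = 0.00351), while BAG1, a nucleotide exchange factor, and BAG6, which handles membrane proteins bound for insertion or degradation, both stood at -0.03 ± 0.06 log2. The transcript of HSF1, a factor regulated mainly after translation, stood at -0.01 ± 0.05 log2 (adjusted p = 0.871). HSF2, its partner, rose by 0.37 ± 0.09 log2 (adjusted p = 0.00389). HSPBP1, a further exchange factor of HSP70, stood at 0.05 ± 0.06 log2 and HSF2BP, a binding partner of HSF2, at -0.07 ± 0.05 log2.

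Of the 24 calls, 18 did not depend on any one pig. The others were lost when certain pigs were left out: HSPE1 in 8 of 11 such fits (its change then lay between -0.19 and -0.12 log2), DNAJC2 in 6 (0.15 to 0.21), CCT7 in 5 (-0.13 to -0.10), DNAJA1 in 5 (0.36 to 0.49), DNAJC14 in 2, without shunt pig 3 or control pig 2 (-0.16 to -0.14), and DNAJB14 in 1, without shunt pig 1 (0.20). The highest adjusted p reached was 0.112.

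The pigs of each array set were also fitted alone, from fewer arrays. At 120 min 12 members passed in shunt pigs 1 to 4 (21.4%, against 10.6% of all genes) and 1, HSPA13, in shunt pigs 5 and 6 (1.79%, against 1.83%). In the control pigs 6 members passed (10.7%, against 8.07%), and all 6 rose: DNAJB1 (1.10 ± 0.22 log2), HSPA13 (0.86 ± 0.14), DNAJA4 (0.45 ± 0.12), DNAJB6 (0.43 ± 0.10), HSPB7 (0.39 ± 0.10) and HSPB3 (0.38 ± 0.10). The shares of members in the last 2 of these sets were near those of all genes.

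**Figure D2:**
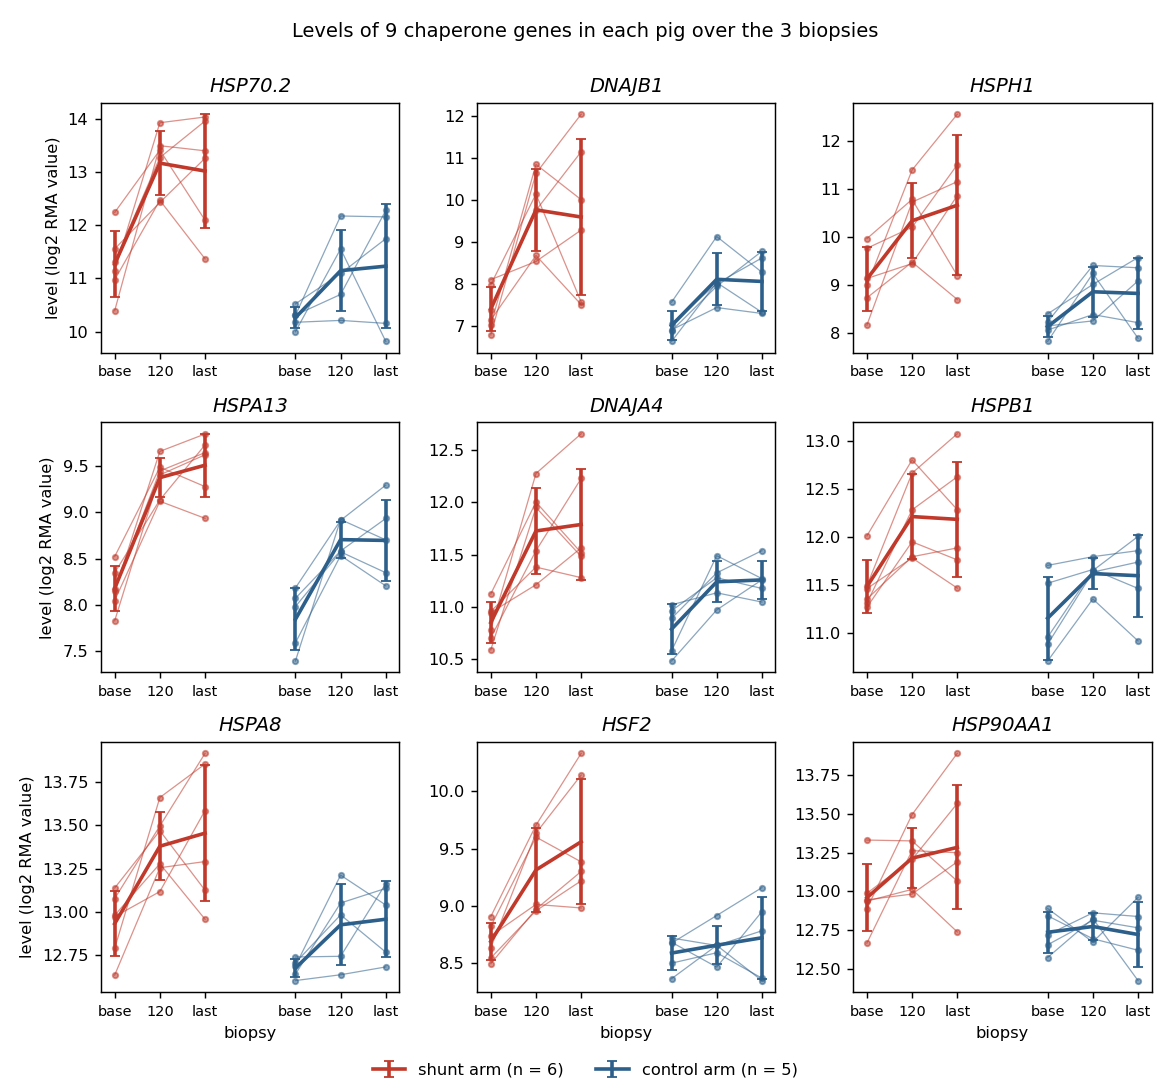
Log2 RMA levels of 9 members in each pig at baseline (base), 120 min and the last biopsy, shunt arm in red on the left and control arm in blue on the right of each panel. Thin lines join the biopsies of a pig, and thick lines give the group mean ± SD. HSPA13 moves upward in every pig at 120 min, by 0.51 to 1.57 log2, and HSP70.2, DNAJB1 and HSPH1 fan out between 120 min and the last biopsy.

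The pigs differed widely in the size of the response, and the same pigs stood out for several genes. HSP70.2 changed by 3.11, 0.88, 2.79, 1.17, 1.50 and 1.97 log2 in shunt pigs 1 to 6 and by 1.87, 0.57, 0.39, 1.56 and 0.04 log2 in control pigs 1 to 5. DNAJB1 changed by 3.84, 0.43, 3.85, 2.16, 1.54 and 2.37 log2 in shunt pigs 1 to 6 and by 1.57, 0.95, 1.06, 1.41 and 0.53 log2 in control pigs 1 to 5. Shunt pigs 1 and 3 were the highest and control pig 5 among the lowest for both. The number of members with a change above 1 log2 was 7 and 8 in shunt pigs 1 and 3, 0 to 3 in the other shunt pigs, and 4, 0, 1, 3 and 0 in control pigs 1 to 5. How many of all genes changed as much in each pig was not counted, so these numbers may not be particular to the members. The 11 pigs had all been treated alike up to this biopsy.

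**Figure D3:**
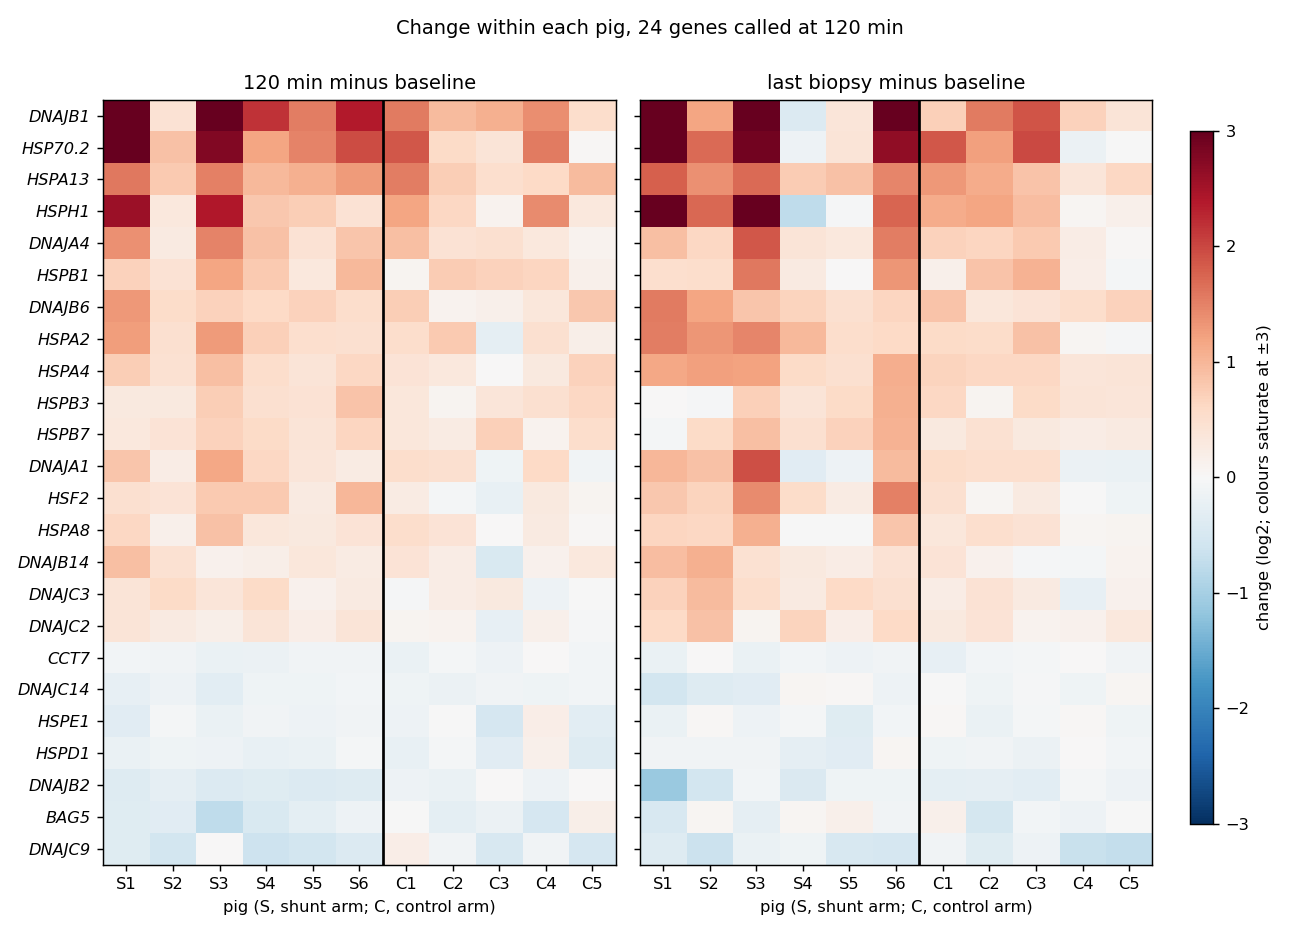
Change within each pig of the 24 members called at 120 min, as log2 level minus baseline, at 120 min on the left and at the last biopsy on the right. Rows are genes in order of their mean change at 120 min, columns are pigs of the shunt arm (S) and the control arm (C), and colours saturate at 3 log2. Shunt pigs 1, 3 and 6 are the darkest in the upper rows of the right panel, and in shunt pig 4 DNAJB1, HSP70.2 and HSPH1 are below 0 there (-0.41, -0.15 and -0.77 log2) while HSPA13 is above it (0.75 log2).

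Probe sets of the same gene did not always move together. Of the 56 members, 24 had more than 1 probe set, and in 12 of these all sets had the same call at 120 min. In 3 genes, sets were called in opposite directions. HSPA4 rose by 0.48 log2 at the brightest set and fell by 0.24 ± 0.08 log2 at the next (adjusted p = 0.021). DNAJB6 rose by 0.59 and 0.53 log2 at 2 sets and fell by 0.19 ± 0.05 log2 at another (adjusted p = 0.0082). HSPA8 rose by 0.36 log2 at the brightest set and fell by 0.14 log2 at a far dimmer one, whose mean log2 level was 5.03 against 13.07. When the sets of a gene were averaged, the changes of HSPA4 and HSPA8 at 120 min came to 0.10 and 0.05 log2 and no longer passed. Those of BAG5 (-0.08) and DNAJB14 (0.04) were lost in the same way. HSP90AA1, not called at its brightest set, rose by 0.43 ± 0.16 log2 at a dimmer one (adjusted p = 0.046). CCT6A, not called either, rose by 0.21 ± 0.08 log2 at its second set (adjusted p = 0.046), and DNAJB9 rose by 0.29 log2 at a dimmer one (adjusted p = 0.011). DNAJA1, DNAJC3 and DNAJC14 were called at the brighter of their 2 sets and not at the other. Which transcripts each set detects was not tested.

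**Figure D4:**
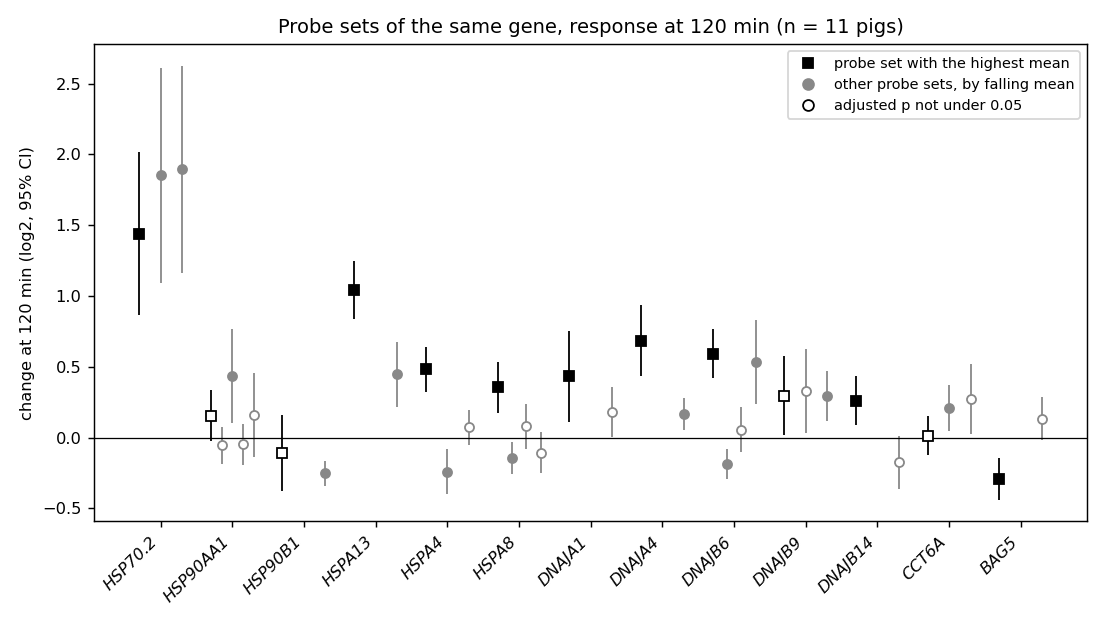
Change at 120 min (log2, 95% confidence interval, 11 pigs) at every probe set of 13 members with several sets, chosen after their values were seen. Black squares are the sets with the highest mean, grey circles the other sets by falling mean, and open symbols did not pass. The 3 sets of HSP70.2 all lie above 1.4, while the sets of HSPA4, HSPA8 and DNAJB6 lie on both sides of 0.

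Between 120 min and the last biopsy no member passed in limma in either arm, and no gene of the array did (0%). With the shunt 9 members (16.1%) had an unadjusted p under 0.05, against 9.79% of all genes, and without it 2 members (3.57%), against 2.37%. The smallest p-values in the shunt arm were those of HSPA4 (0.35 ± 0.10 log2, upward in 6 of 6 pigs, adjusted p = 0.346 in limma), BAG5 (0.30 ± 0.10 log2, 5 of 6 pigs, adjusted p = 0.374) and BAG1 (0.25 ± 0.09 log2, 6 of 6 pigs, adjusted p = 0.398). In the control arm they were those of DNAJC2 (0.24 ± 0.09 log2), DNAJB9 (0.47 ± 0.20 log2) and DNAJC9 (-0.20 ± 0.11 log2), all with adjusted p-values of 1.00 in limma.

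After 120 min HSP70.2, DNAJB1 and HSPH1 went opposite ways in different pigs of the same arm. HSP70.2 changed by -0.10, 0.83, 0.11, -1.32, -1.10 and 0.69 log2 in shunt pigs 1 to 6 and by -0.02, 0.65, 1.58, -1.74 and -0.06 log2 in control pigs 1 to 5. DNAJB1 changed by -0.84, 0.75, 1.41, -2.57, -1.17 and 1.40 log2 in the shunt pigs and by -0.85, 0.61, 0.84, -0.71 and -0.14 log2 in the control pigs. HSPH1 changed by 0.43, 1.41, 1.16, -1.58, -0.78 and 1.30 log2 in the shunt pigs and by -0.05, 0.56, 0.83, -1.35 and -0.17 log2 in the control pigs. All 3 genes moved downward in shunt pigs 4 and 5 and in control pigs 4 and 5, and upward in shunt pigs 2, 3 and 6 and in control pigs 2 and 3. With such spread the mean change of an arm is poorly determined, and its interval includes 0 for each of the 3 genes in both arms.

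Over the whole course, at the last biopsy against baseline, 30 of 56 members passed in the shunt arm (53.6%, against 40.3% of all genes), and 7 passed among control pigs (12.5%, against 9.98%). In the shunt arm 27 rose and 3 fell, where 16.7% of all genes rose and 23.6% fell. In the control arm 6 rose and 1 fell, where 4.39% rose and 5.59% fell. All 7 members called in the control arm were also called in the shunt arm. The median change of the members was 0.22 log2 with the shunt and 0.02 log2 without it, beside -0.02 for all genes in each arm. More pigs were in the shunt arm, and a call in one arm but not in the other is no test of a difference.

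Members called in both arms were HSPA13 (1.33 ± 0.14 log2 with the shunt and 0.85 ± 0.15 in control pigs), HSPA4 (0.96 ± 0.10 and 0.53 ± 0.11), DNAJB6 (0.89 ± 0.11 and 0.56 ± 0.12), DNAJB9 (0.55 ± 0.18 and 0.68 ± 0.20), HSPB3 (0.45 ± 0.11 and 0.40 ± 0.12), HSPA14 (0.35 ± 0.08 and 0.33 ± 0.09) and DNAJC9 (-0.39 ± 0.10 and -0.40 ± 0.11). Each of these changes was read at the brightest probe set of the gene. As described above, HSPA4 and DNAJB6 had probe sets called in opposite directions in the earlier response. The changes of their other sets over the whole course are not given here, so these values hold for the brightest sets only. HSPA13 had log2 levels of 8.94, 9.63 and 9.84 in the shunt pigs at the last biopsy (lowest, median, highest), and 8.70, 9.29, 8.93, 8.35 and 8.21 in the control pigs. In both arms these lay above every baseline level of the arm. In the control arm, DNAJB9 was no longer called without pig 1, 3 or 5, DNAJC9 without pig 2, 4 or 5, HSPA14 without pig 1, 2 or 4, and HSPB3 without pig 1, 3, 4 or 5. The number called there fell to 4 without control pig 1, 4 or 5. In the shunt arm 18 members passed over the whole course when shunt pigs 1 to 4 were fitted alone (32.1%, against 24.5% of all genes) and 6 when shunt pigs 5 and 6 were (10.7%, against 5.26%).

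The largest rises in the shunt arm were those of DNAJB1, HSP70.2 and HSPH1, none of which passed in the control arm. DNAJB1 had log2 levels of 7.51, 9.65 and 12.05 in the shunt pigs at the last biopsy (lowest, median, highest), and 8.28, 8.63, 8.78, 7.33 and 7.30 in the control pigs. Its change was 2.20 ± 0.49 log2 with the shunt (adjusted p = 0.00108, 5 of 6 pigs), against 1.05 ± 0.53 log2 in control pigs (adjusted p = 0.261, 5 of 5 pigs). Shunt pigs 1, 2, 3 and 6 lay above every control pig, and shunt pigs 4 and 5 lay among the control pigs.

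HSP70.2 had log2 levels of 11.37, 13.33 and 14.04 in the shunt pigs at the last biopsy, and 12.16, 11.75, 12.28, 9.81 and 10.15 in the control pigs. Its change was 1.75 ± 0.38 log2 with the shunt (5 of 6 pigs), against 0.97 ± 0.41 log2 in control pigs (adjusted p = 0.163, 3 of 5 pigs). HSPH1 changed by 1.53 ± 0.39 log2 in the shunt arm, upward in 4 of 6 pigs, and by 0.69 ± 0.43 log2 in control pigs (adjusted p = 0.381, 5 of 5 pigs). HSPA2 rose by 1.08 ± 0.16 log2 in the shunt arm, DNAJA4 by 0.94 ± 0.16, HSF2 by 0.87 ± 0.13, DNAJA1 by 0.71 ± 0.21 and HSPB1 by 0.70 ± 0.16 log2. None of them passed in the control arm, although the mean change of each was above 0 there too. There the mean log2 level of DNAJA4 went from 10.79 at baseline to 11.26 at the last biopsy, and that of DNAJA1 from 9.45 to 9.69. In the shunt arm the call of DNAJA1 was lost without shunt pig 3 (0.46 log2) and that of DNAJB9 without shunt pig 1 (0.37 log2).

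The shunt arm also had small rises in genes that had not passed at 120 min. They included CCT2, TCP1 and CCT8 of the CCT chaperonin (0.32 ± 0.10, 0.22 ± 0.07 and 0.20 ± 0.07 log2), BAG1 (0.26 ± 0.09 log2), HSP90AA1 (0.32 ± 0.12 log2, adjusted p = 0.0378) and the J-domain genes DNAJA2, DNAJC24 and DNAJC17. Each of these 8 calls was lost without at least 2 of the 6 shunt pigs in turn, shunt pig 2 in every case. The falls were those of DNAJB2 (-0.41 ± 0.10 log2), DNAJC9 and DNAJC14 (-0.22 ± 0.07 log2). BAG5 stood at -0.09 ± 0.10 log2 in the shunt arm, HSPD1 at -0.14 ± 0.06 and HSPE1 at -0.14 ± 0.08 log2, and none of these 3, which had fallen at 120 min, passed. After quantile normalisation HSPD1 (-0.21 log2, adjusted p = 0.00682 in limma) and HSPE1 (-0.19 log2, adjusted p = 0.0288) did pass. HSP90B1 stood at -0.45 ± 0.18 log2 in the shunt arm (adjusted p = 0.0554) at its brightest set. Without shunt pig 4 it passed, at -0.73 ± 0.11 log2 (adjusted p = 1.34e-05). It passed as well after quantile normalisation, without the dimmest probe sets, with adjustment over genes and with its probe sets averaged (adjusted p = 0.000895 for the average).

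**Figure D5:**
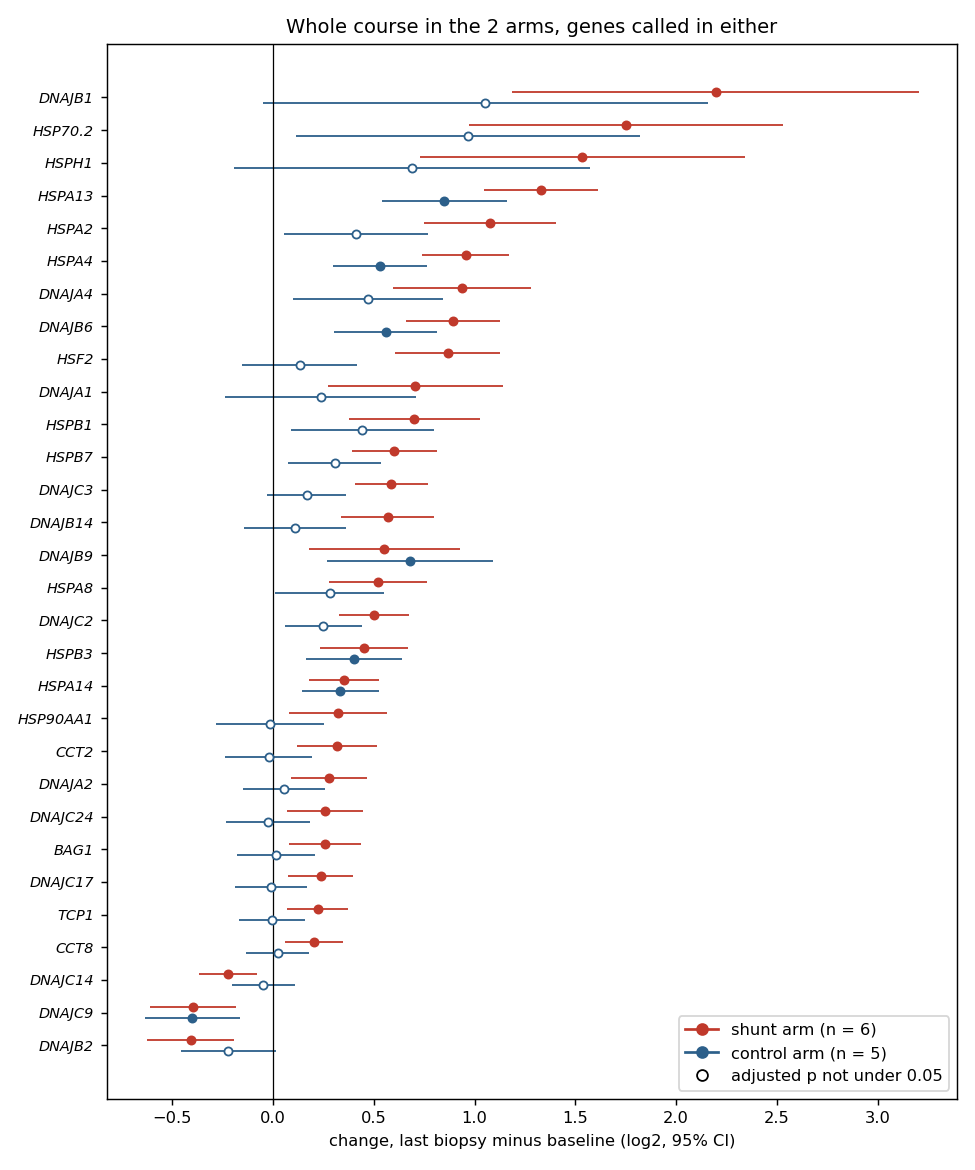
Change at the last biopsy minus baseline (log2, 95% confidence interval) of the 30 members called in either arm, shunt arm in red (n = 6 pigs) and control arm in blue (n = 5 pigs), with open circles where a member did not pass. For most genes the red point lies farther from 0, and for DNAJB9 and DNAJC9 the blue one does.

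The difference between the arms was then tested directly, as an interaction. No member passed for the response at 120 min, for the later change or for the whole course, as did 0%, 0% and 0.0148% of all genes. Unadjusted p-values under 0.05 in limma numbered 3 of 56 at 120 min (5.36%, against 6.74% of all genes), 0 for the later change (0%, against 2.34%) and 10 for the whole course (17.9%, against 14.8%). The shares were thus near those of all genes. The smallest p-value of the whole course was that of HSF2, whose change was higher in the shunt arm by 0.73 ± 0.19 log2 (adjusted p = 0.142). DNAJC3 (0.42 ± 0.13 log2, adjusted p = 0.187) and HSPA2 (0.66 ± 0.23 log2, adjusted p = 0.248) followed. Without shunt pig 4, HSF2 (0.80 ± 0.19 log2, adjusted p = 0.0438) and DNAJC3 (0.48 ± 0.12 log2, adjusted p = 0.0497) passed, and without shunt pig 5 HSF2 did (0.86 ± 0.18 log2, adjusted p = 0.0402).

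For HSF2 the arms lay apart at 120 min already, before the shunt was opened. Its log2 levels in the shunt pigs were 8.50, 8.69 and 8.91 at baseline, 8.96, 9.31 and 9.70 at 120 min, and 8.98, 9.34 and 10.33 at the last biopsy. In control pigs 1 to 5 they were 8.68, 8.72, 8.68, 8.37 and 8.50 at baseline, 8.92, 8.66, 8.47, 8.66 and 8.59 at 120 min, and 9.16, 8.78, 8.95, 8.35 and 8.37 at the last biopsy. At 120 min the shunt pigs lay above all control pigs, and at baseline the arms overlapped. The difference in the response was 0.55 ± 0.19 log2, with the smallest p of the members (adjusted p = 0.55). Fitted apart, the response was 0.61 ± 0.14 log2 (shunt pigs 1 to 4), 0.64 ± 0.27 log2 (shunt pigs 5 and 6) and 0.07 ± 0.11 log2 (control pigs).

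Before any banding the levels of the arms were compared as well. No member passed on the 11 baseline arrays, where 0.0443% of all genes did, but 11 members had an unadjusted p under 0.05 (19.6%, against 12.5% of all genes). DNAJA1 had log2 levels of 9.78, 10.06 and 10.55 in the shunt pigs and of 9.57, 9.44, 9.42, 9.43 and 9.42 in the control pigs, without overlap. The difference was 0.65 ± 0.13 log2 (adjusted p = 0.0936). HSP70.2 was higher in the shunt pigs by 1.01 ± 0.25 log2 (adjusted p = 0.167), with overlap, and DNAJC9 by 0.45 ± 0.11 log2 (adjusted p = 0.179). Whether these come from the pigs or from the array sets cannot be told apart, and the same holds for every comparison of the arms above.

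Of 38 other genes of the pathway, 31 were measured, and 6 rose and 5 fell at 120 min. Among all genes 33.9% were called at 120 min, 13.1% as rises and 20.8% as falls. The median change of the 31 was -0.08 log2. HSPA6, the HSP70 made under stress alone, rose by 4.03 ± 0.55 log2, its partner genes BAG3 and HSPB8 by 1.56 ± 0.21 and 1.30 ± 0.15 log2, and the lens and muscle small heat shock protein CRYAB by 0.54 ± 0.06 log2. CDC37L1, a relative of the HSP90 adaptor CDC37, rose by 0.59 ± 0.08 and the mitochondrial exchange factor GRPEL1 by 0.16 ± 0.06 log2. The falls were those of SUGT1, an HSP90 adaptor (-0.32 ± 0.07 log2), TXNDC9, which binds CCT (-0.33 ± 0.10), SERPINH1, the collagen chaperone HSP47 (-0.22 ± 0.08), ST13, the HSP70 cofactor Hip (-0.21 ± 0.07), and UNC45B, the myosin chaperone of muscle (-0.20 ± 0.06 log2). At the last biopsy against baseline 7 of the 31 rose and 6 fell in the shunt arm, where 16.7% of all genes rose and 23.6% fell. In the control arm 4 rose and none fell, where 4.39% of all genes rose and 5.59% fell.

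In whole tissue, fewer cells of a type and less RNA per cell cannot be told apart, and some markers of other cells moved with the response; their part in the results was not tested. Of 7 neutrophil and monocyte markers, 3 rose at 120 min and none fell. Their mean change was 0.64 ± 0.37 log2 in the shunt pigs and 0.03 ± 0.13 in the control pigs (SD). Their summed log2 level ran between 40.1 and 47.7 in the shunt pigs at 120 min and between 38.0 and 40.6 at baseline, and in the control pigs between 38.8 and 40.7 at 120 min and between 38.4 and 40.3 at baseline. Over the whole course 5 of the 7 rose in the shunt arm and 1 did among control pigs, with mean changes of 0.95 ± 0.49 and 0.31 ± 0.17 log2. At the last biopsy their summed level ran between 41.2 and 51.4 in the shunt pigs and between 40.3 and 42.6 in the control pigs. Of 5 smooth muscle and pericyte markers 2 rose at 120 min. Over the whole course 3 of them rose in the shunt arm and 1 did among control pigs, with mean changes of 0.63 ± 0.52 and 0.17 ± 0.09 log2. Their summed level in the shunt pigs ran between 47.9 and 54.7 at the last biopsy and between 44.97 and 48.7 at baseline. In the control pigs it ran between 48.7 and 50.0 at the last biopsy and between 47.3 and 49.3 at baseline. Of 9 cardiomyocyte markers PLN fell by 0.44 log2 at 120 min, and no other passed. Their mean change was -0.11 ± 0.10 log2 in the shunt pigs and -0.05 ± 0.10 in the control pigs (SD). It was above 0 in 2 of 11 pigs. Over the whole course PLN (-0.77 log2) and TNNT2 (-0.21 log2) fell in the shunt arm and none passed among control pigs. The mean changes of the 9 were then -0.19 ± 0.12 and -0.04 ± 0.05 log2, above 0 in 1 of 11 pigs. At 120 min, of the 7 endothelial markers 1 rose and 2 fell, of 4 fibroblast markers 1 rose and 1 fell, of 6 lymphocyte markers 1 fell, and neither red cell marker passed. Among all genes 13.1% rose and 20.8% fell at 120 min. Over the whole course 16.7% rose and 23.6% fell in the shunt arm, and 4.39% and 5.59% in the control arm.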

How the data were processed

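The deposited values are log2 probe set levels on 33 Affymetrix arrays, made by the authors with RMA per the submitters' processing notes. No source used here gives the software version, the annotation build or the grouping of arrays for RMA. RMA subtracts background, equalises the distributions of the arrays and summarises each probe set, which compresses dim signals and hides a shift shared by all genes. The number of arrays limits the precision. No array repeated another: pairwise correlations lay between 0.956 and 0.995.

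The values were used as deposited. Of 24123 probe sets, 124 controls were left out and 23999 tested. Symbols came from the platform annotation, where 10069 probe sets had a single one. They gave 6765 genes, each read at its brightest probe set. Of the 56 members 55 matched RefSeq, and HSPA1L and HSF4 were not analysed here. No genome positions or sequences were used, and the planned description of promoters and proteins was not run.

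limma 3.58.1 in R 4.3.3 (lmFit, eBayes) was fitted to all arrays with pig as a fixed block and biopsy within arm (18 residual degrees of freedom), two-sided, with Benjamini-Hochberg adjustment over all probe sets and a threshold of 0.05. The arms at baseline were compared on 11 arrays. Fold changes are 2 raised to the log2 change. The labels give the same pig at each biopsy: after removal of group means, arrays of a pig correlated with a median r of 0.395 (lowest 0.0810) and arrays of different pigs with -0.0524, and 28 of 33 arrays were closest to one of their own pig. The GAPDH 3' minus 5' difference, a sign of RNA quality, averaged 0.759 to 0.865 log2 in the 6 groups. Single arrays ran more widely, between 0.461 and 1.31 log2. The fit was tested on simulated data.

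Named were up to 12 rises and 12 falls past the threshold at 120 min, up to 10 each way elsewhere or the 3 smallest p-values where none passed, and a fixed panel, and every other member once with its response. Members, lists and tests were chosen with earlier results of these data known. Alternatives were median centring, quantile normalisation, no pig block, a random pig block (statmod 1.5.0), an intensity trend with robust eBayes, leaving out the dimmest 30% of probe sets, averaging probe sets, adjustment over genes, each array set alone and each pig left out.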

Additional observations from a re-analysis of the deposited data

Results flagged for a closer look

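In the 24 members called at 120 min, the highest or lowest pig of each of 144 groups of arrays was set against the others by Dixon's criterion, which chance meets in about 1 in 20 groups. It was met in 5. DNAJA1 had a log2 level of 9.57 in control pig 1 at baseline, apart from the other 4 control pigs, of which the nearest had 9.44. DNAJB2 stood low in shunt pig 2 at baseline, at 7.80, with the nearest shunt pig at 8.11. DNAJB6 stood high in shunt pig 1 at 120 min, at 9.85, with the nearest at 9.54. HSPB1 stood high in shunt pig 4 at baseline, at 12.01, with the nearest at 11.49. HSPE1 stood low in control pig 4 at baseline, at 12.07, with the nearest at 12.18. Each of these genes kept its call at 120 min without the pig named, except DNAJA1, which was lost without control pig 1. Their causes were not tested.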

How the results depend on the processing

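No called change of a member turned its direction in any alternative. The 24 calls at 120 min became 18 to 25 in the alternatives on all pigs, with 18 when pig was not a block, and 20 to 26 with a pig left out. Fitted apart, shunt pigs 1 to 4 gave 12 calls, shunt pigs 5 and 6 gave 1 and the control pigs 6, from fewer arrays, where 10.6%, 1.83% and 8.07% of all genes were called. The median change at 120 min stayed between 0.02 and 0.05 log2 with a pig left out. The 30 calls of the whole course in the shunt arm became 21 to 32 with a pig left out, 24 with no replicate block, 18 in shunt pigs 1 to 4 and 6 in shunt pigs 5 and 6 (24.5% and 5.26% of all genes). The 7 of the control arm became 4 to 8 with a pig left out and 4 with no replicate block. The difference between the arms in the whole course had 0 to 2 calls with a pig left out. The later change, the other differences and the baseline comparison had 0 under every alternative that gave a value, and with no block the baseline fit is the same. Without the pig block BAG5, DNAJA1, DNAJB2, DNAJC2, DNAJC14 and HSPE1 lost their calls at 120 min. DNAJC14 also lost its call after quantile normalisation and with pig as a random block, and DNAJA1 with the intensity trend. HSPA14 gained one in 5 of 8 alternatives on all pigs. Over the whole course in the shunt arm HSPD1, HSPE1, CCT7, DNAJA3, DNAJC19 and HSP90B1 gained calls as falls under quantile normalisation, and HSP90B1, DNAJA3 and DNAJC19 also without shunt pig 4. DNAJA3 (-0.26 log2) passed as well with a random pig block, the intensity trend, the dimmest sets left out, averaged sets and adjustment over genes. It did so too without control pig 3, 4 or 5. CCT7 (-0.12 log2) passed as well with the random block, averaged sets and adjustment over genes. The cause of these moves was not tested. Precision is limited by 5 or 6 pigs an arm and by the spread between pigs, which is widest for HSP70.2, DNAJB1 and HSPH1.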
